A study of Mus musculus with 6 samples.

Results

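A set of 37 genes of glucose uptake, glycolysis and glycogen metabolism was followed in mouse heart tissue. The genes are those whose symbols in the deposited count table match a list of transporters and enzymes of these routes, and all 37 were found among 49315 genes. Of these, 36 had enough reads to be tested among 14370 tested genes. Aldoc, the brain aldolase, had 6, 1 and 4 reads in the WT libraries and 8, 7 and 2 in the TET2KO libraries and was not tested.

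Glycolysis breaks glucose down to pyruvate, and lactate dehydrogenase exchanges pyruvate with lactate. Glycogen is the branched store of glucose that muscle builds through glycogen synthase and opens through glycogen phosphorylase. The adult heart draws most of its energy from fatty acids, takes up glucose mainly through the insulin-regulated transporter GLUT4, and leans more on glucose when it hypertrophies under a pressure load. Many of the steps have a muscle isozyme beside a more widely expressed one, so the set can be read both by step and by isozyme.

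The tissue was mid-ventricular heart of adult mice, and every animal had received Angiotensin II, a vasoconstrictor peptide, at 1 mg/kg/day for 28 days from subcutaneous osmotic minipumps. One group of 3 libraries is labelled wild type (WT). The other group of 3 is labelled as a Tet2 knockout specific to endothelial cells (TET2KO), Tet2 being a dioxygenase that oxidises 5-methylcytosine in DNA. The samples of a group are described as biological replicates, all carry batch label 1, and no group without Angiotensin II was analysed here. The sources used here name neither the Cre driver nor the deleted exons, and give no age in weeks or sex. In whole tissue, fewer cells of a type and less RNA per cell cannot be told apart.

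Levels are given as CPM, reads scaled to a common library size with TMM factors, and where 3 values stand in a row they are those of replicates 1, 2 and 3. Means are ± SD (n = 3 per group). Differences are log2 fold changes of TET2KO over WT ± SE, and a gene passed the test where edgeR's quasi-likelihood test gave an adjusted p under 0.05 over all tested genes. A trend-removed value is the same difference after a smooth dependence on transcript length and GC content was taken out of each library.

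Facts of the whole series that touch these genes were as follows. Library totals ran from 22124844 to 30418909 reads. Tet2 stood at 4.27, 4.33 and 3.08 CPM in the WT libraries and 14.6, 8.01 and 10.3 CPM in those labelled TET2KO, which was higher and against the label (log2 fold change 1.49 ± 0.29, adjusted p = 0.00652, trend-removed 0.27 ± 0.17, not past the test). Directions below are therefore those of the libraries as labelled. Fold changes followed transcript length over 14341 genes (Spearman's rho 0.61, and 0.26 with GC content). Markers of cardiomyocytes, the cells of the labelled tissue, were abundant, with a summed level of 102200 to 124300 CPM in WT against 71950 to 78100 in TET2KO (12 of 12 tested, 5 higher and 6 lower). Of 12 endothelial markers 9 were higher and 2 lower (75% and 16.7%, against 33.4% and 29.4% of all tested genes). Their sums were 487 to 534 CPM in WT against 554 to 1098 in TET2KO. With the trend removed 6 were higher and 2 lower. All 5 tested markers of red blood cells fell (sums of 1555 to 7038 and 165 to 741 CPM), while fibroblast markers had 5 higher and 4 lower of 10, mural cell markers 3 and 3 of 9, and macrophage markers 2 and 3 of 10. Only 4 of 11 skeletal muscle markers and 2 of 7 adipocyte markers had enough reads to be tested, with sums of at most 15.7 and 5.91 CPM in any library.

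Promoter sequence is shown first for 5 members, all of which hold the motif described below. These are the muscle and brain glycogen phosphorylases Pygm and Pygb, the lysosomal glycogen-degrading enzyme Gaa, hexokinase Hk2 and, among the genes that fell, Pgk1. Members whose windows lack the motif are not printed, among them Hk1, Gys1, Gbe1, Eno3 and Gapdh. RefSeq windows of 250 bases before the start (GRCm38.p6) were at hand for 34 of the 37 members, all but Slc2a3, Slc2a4 and Pgm1. The motif ACGTG, the core that hypoxia-inducible factors bind, was searched on both strands. At least 1 window of 15 of the 34 members (44.1%) held it, against 4998 of 27025 genes (18.5%). Those 27025 are all genes with RefSeq windows, tested or not. They were not matched to the members for GC content or number of windows, and several members have more than 1 window. Some windows, such as those of Ldha and Slc16a3, lie inside the annotated gene. Printed below are the bases upstream of the annotated gene start, 5′ to 3′, with ACGTG, its reverse complement or the longer CACGTG in capitals.
Pygm (chr19:6384158-6384398, plus strand): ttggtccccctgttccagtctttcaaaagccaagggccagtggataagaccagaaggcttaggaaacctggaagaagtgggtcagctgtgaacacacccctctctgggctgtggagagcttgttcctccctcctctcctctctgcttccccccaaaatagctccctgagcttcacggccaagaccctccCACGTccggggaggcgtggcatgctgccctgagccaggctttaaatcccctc
Pygb (chr2:150786546-150786734, plus strand): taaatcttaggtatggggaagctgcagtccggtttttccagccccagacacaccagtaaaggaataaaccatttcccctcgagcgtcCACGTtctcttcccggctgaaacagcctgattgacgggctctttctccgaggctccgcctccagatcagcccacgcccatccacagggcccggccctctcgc
Gaa (chr11:119267713-119267886, plus strand): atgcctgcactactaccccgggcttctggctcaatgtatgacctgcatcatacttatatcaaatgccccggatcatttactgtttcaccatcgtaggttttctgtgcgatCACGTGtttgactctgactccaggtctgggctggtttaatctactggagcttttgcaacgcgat
Hk2 (chr6:82774455-82774704, minus strand): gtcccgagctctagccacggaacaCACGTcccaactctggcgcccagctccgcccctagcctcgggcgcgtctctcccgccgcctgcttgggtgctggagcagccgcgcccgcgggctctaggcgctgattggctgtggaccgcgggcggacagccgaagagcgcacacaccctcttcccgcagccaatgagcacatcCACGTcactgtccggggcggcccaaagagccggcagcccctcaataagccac
Pgk1 (chrX:106186850-106187099, plus strand): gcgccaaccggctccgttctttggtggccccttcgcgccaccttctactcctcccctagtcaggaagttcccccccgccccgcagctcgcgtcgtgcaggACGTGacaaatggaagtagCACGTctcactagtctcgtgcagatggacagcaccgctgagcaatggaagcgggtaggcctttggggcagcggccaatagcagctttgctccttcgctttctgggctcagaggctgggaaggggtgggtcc

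Of the 15 members with ACGTG, 8 rose, 3 fell and 4 did not pass the test. Of the other matched members 10 rose, 5 fell, 3 did not pass and 1 was not tested. CACGTG, which contains ACGTG, was in 5 members (14.7%, against 6.86% of all genes), GGGCGG in 20 (58.8%, against 35.4%) and TATAAA in 1 (2.94%, against 14.3%). A motif match describes the letters of the window and is no measure of binding.

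Across the set, 18 members were higher (50% of 36) and 8 lower (22.2%) in the libraries labelled TET2KO, and 10 did not pass. Over all tested genes the shares were 33.4% higher and 29.4% lower. The median log2 fold change was 0.502 for the members and 0.05 for all genes. The CPM values of the groups did not overlap for 19 members on the higher side and 10 on the lower side, against 38% and 35.5% of all genes. TET2KO replicate 2 was the lowest of its group in 16 of the 18 members that rose and the highest in all 8 that fell.

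With the length and GC trend removed, 16 members were higher (44.4%) and 3 lower (8.33%), against 21.9% and 24.3% of all genes, and the members' median was 0.19. Of the 18 that rose as counted, 14 also passed as higher here and 4 did not pass (Pfkp, Pkm, Phka1 and Phkb). Of the 8 that fell, 2 also passed as lower (Pfkfb1 and Eno3) and 6 did not pass (Pgk1, Pgam2, Ldha, Ldhb, Ugp2 and Gyg). Tpi1 and Pgm1, not past the test as counted, passed as higher here, and Slc16a3 passed as lower.

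Leaving out a library changed the number of calls among the members and among all genes. Leaving out WT replicate 1 gave 15 members higher and 4 lower (23.3% and 19.6% of all genes), leaving out WT replicate 3 gave 15 and 3 (22.6% and 18.6%), and leaving out TET2KO replicate 3 gave 17 and 2 (24.9% and 16.9%). After trend removal the members higher numbered 11 without each WT library in turn and 10 without TET2KO replicate 3, where 13.3% to 15.4% of all genes were higher. Members lower numbered 1, 2, 2, 1, 6 and 1 there without WT replicates 1, 2 and 3 and TET2KO replicates 1, 2 and 3, against 14.9%, 17.6%, 14.5%, 17.4%, 30.5% and 13.7% of all genes. Of the 16 members higher with the trend removed, 10 kept that call without each of the 6 libraries in turn, and Hk2, Gpi1, Pfkl, Pfkfb2, Eno1 and Pgm1 did not. Of the 3 lower, Eno3 kept it, while Pfkfb1 and Slc16a3 each lost it in 4 of the 6.

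Scaling by total library size, which moved the median of all genes to 0.47, gave 22 higher and 4 lower (45.5% and 15.8% of all genes). The authors' deposited TPM gave 25 higher and 2 lower on log2(TPM + 1), with a median of all genes of 0.41 (48.6% and 12.5%), and 25 and 0 on log2(TPM + 0.1), with a median of 0.64 (50.8% and 11.3%). In each of the 23 alternatives run, 8 members were higher, namely Hk1, Pfkm, Pfkfb3, Gys1, Gbe1, Pygm, Pygb and Gaa. No member was lower in all 23.

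**Figure D1:**
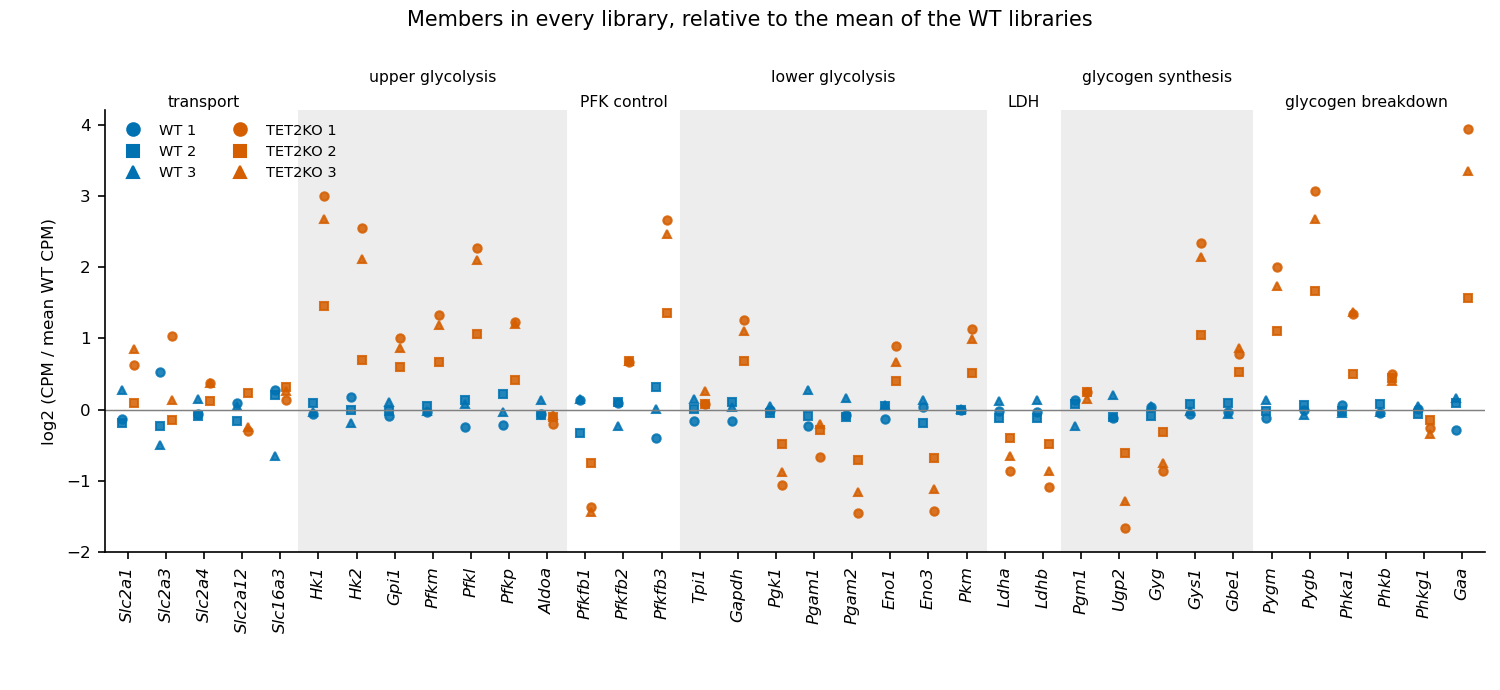
Level of each tested member in every library, as log2 of its CPM over the mean CPM of the WT libraries (vertical axis), for the 36 tested members in the order of their roles (horizontal axis); blue symbols are WT and orange symbols TET2KO, with a shape for each replicate. The orange squares of TET2KO replicate 2 lie nearest to zero within their group for most members that rose or fell, and Gaa spans the widest range, from 19.1 to 99.2 CPM in TET2KO.

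None of the 5 transporters passed the test. Slc2a4 encodes GLUT4, and in TPM, which are scaled to length, it made up 94.2 ± 0.268% of the summed level of Slc2a1, Slc2a3, Slc2a4 and Slc2a12 in WT and 94.2 ± 0.287% in TET2KO. Slc2a4 held 277, 270.2 and 319 CPM in WT against 374, 315 and 373 in TET2KO, where replicate 2 lay within the WT range (log2 fold change 0.29 ± 0.18, adjusted p = 0.179). Slc2a1, which encodes the basal transporter GLUT1 of many cell types including endothelium, held 8.06, 7.77 and 10.7 and 13.7, 9.41 and 15.9 CPM. TET2KO replicate 2 again overlapped with WT (0.56 ± 0.25, adjusted p = 0.086). Without that library both genes passed as higher, with log2 fold changes of 0.39 for Slc2a4 and 0.77 for Slc2a1. Both also passed as higher with total library size (0.73 and 1.001) and on log2(TPM + 1) (0.92 and 1.01), scalings that moved the median of all genes to 0.47 and 0.41. Trend-removed values had the opposite sign, at -0.18 ± 0.11 and -0.18 ± 0.19, and did not pass.

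Slc2a3, the high-affinity GLUT3 of neurons, was low, with 1.58, 0.940 and 0.784 CPM in WT against 2.27, 1.001 and 1.21 in TET2KO (0.44 ± 0.43, trend-removed -0.10 ± 0.37, neither past the test). Slc2a12 (GLUT12) had a log2 fold change of -0.08 ± 0.22 as counted but was higher on log2(TPM + 1), at 0.44. It shares 407 exonic bases with Tbpl1 on the opposite strand, and its counts are uncertain for that reason. Slc16a3 encodes MCT4, a lactate exporter of glycolytic cells. It held 2.88, 2.74 and 1.51 CPM in WT against 2.62, 2.97 and 2.86 in TET2KO, so WT replicate 3 alone stood low (0.24 ± 0.30). Its trend-removed value of -1.23 ± 0.39 passed as lower, whereas on log2(TPM + 1) and log2(TPM + 0.1) it passed as higher (0.43 and 0.83), so its direction is not settled.

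The hexose phase of glycolysis had the highest share of rises among the steps, at 85.7%, close to the 83.3% of glycogen breakdown. Of 7 tested members 6 rose and 1, Aldoa, did not pass, with a median of 1.09. Of all tested genes 33.4% were higher, and of those of 3000 nt or more 53.0%. The median transcript of these 7 members was 3730 nt. Trend-removed 5 were higher (71.4%) and 0 lower with a median of 0.43, against 21.9% and 24.3% of all genes. The endothelial marker sum was also higher in TET2KO (554 to 1098 against 487 to 534 CPM), and its part in these rises was not tested. Of the 12 markers 9 rose, while Egfl7 (251 ± 28.1 to 108 ± 31.9 CPM) and Emcn (64.3 ± 6.22 to 43.3 ± 9.18 CPM) fell. These markers are long, with a median transcript of 4114.5 nt, and trend-removed 6 were higher and 2 lower.

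Hexokinases trap glucose in the cell by phosphorylating it. Hk1 (ENSMUSG00000037012, chromosome 10, 62268855 to 62379908, minus strand), the widely expressed form, held 18.6, 20.7 and 18.9 CPM in WT against 154, 53.2 and 124 in TET2KO. The lowest TET2KO library was well above the highest WT library, and the mean rose 5.70-fold (log2 fold change 2.51 ± 0.37, adjusted p = 0.00652, trend-removed 0.88 ± 0.13, past the test). Hk2 (ENSMUSG00000000628, chromosome 6, 82725025 to 82774454, minus strand), the insulin-responsive form of heart and skeletal muscle, held 42.05, 37.03 and 32.8 and 218, 60.4 and 162 CPM. These groups did not overlap either, although TET2KO replicate 2 stood far below the other TET2KO libraries (1.98 ± 0.42, adjusted p = 0.00711). The trend-removed value of Hk2, 0.53 ± 0.19, passed narrowly (edgeR adjusted p = 0.0485) with groups that overlapped, and the call was lost without any 1 of 5 of the 6 libraries. Gpi1, the isomerase that follows, rose from 237 ± 16.9 CPM in WT to 421 ± 60.03 in TET2KO (0.83 ± 0.19, adjusted p = 0.00799, trend-removed 0.39 ± 0.11). With the length of all merged exons in place of the longest transcript, the value of Gpi1 turned to -0.25. It shares 741 exonic bases with a gene on the opposite strand and has 1 near-identical copy, so its counts are uncertain.

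Phosphofructokinase commits the sugar to glycolysis and is built from muscle, liver and platelet subunits. Pfkm (ENSMUSG00000033065, chromosome 15, 98092589 to 98132451, plus strand), the muscle subunit, held 313, 331 and 313 CPM in WT against 803, 507 and 724 in TET2KO, without overlap (1.09 ± 0.22, adjusted p = 0.00656, trend-removed 0.47 ± 0.11, past the test). Pfkm shares 341 exonic bases with Gm26513 on the same strand. Pfkl (ENSMUSG00000020277, chromosome 10, 77986947 to 78010083, minus strand), the liver subunit, held 19.3, 24.98 and 24.02 and 109, 47.47 and 97.9 CPM (1.90 ± 0.31, adjusted p = 0.00652, trend-removed 0.43 ± 0.14, past the test). With merged exons the value of Pfkl, 0.34, did not pass. Its value as counted exceeded that of the muscle subunit, and after trend removal the values lay close to each other. Pfkp, the platelet subunit, held 23.1, 31.4 and 26.2 and 63.3, 35.7 and 61.8 CPM. The lowest TET2KO value of Pfkp lay close to the highest WT value (0.99 ± 0.25, adjusted p = 0.0114). Pfkp lost its call when WT replicate 1 or WT replicate 3 was left out (0.88 and 0.97) and after trend removal (0.43 ± 0.17), and its value was -0.32 with merged exons. Pfkp also shares 748 exonic bases with Pitrm1 on the opposite strand.

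Aldoa, the muscle aldolase, was the exception in this phase. It held 2732, 2724 and 3132 CPM in WT against 2495, 2659 and 2711 in TET2KO, each TET2KO value a little under the WT values (-0.13 ± 0.19, adjusted p = 0.582, trend-removed 0.16 ± 0.10, not past the test). On log2(TPM + 1) it passed as higher (0.51) and with the trend on merged exon lengths as lower (-0.48), so its direction depends on the scaling and on the length used. Aldoc contributed 0.00738 ± 0.00527% of the aldolase TPM in WT and 0.00760 ± 0.00424% in TET2KO.

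All 3 members among the bifunctional enzymes that make or remove the activator of phosphofructokinase passed the test, in different directions. Pfkfb4, of the same family but outside the set, held 3.89 ± 0.296 CPM in WT against 3.11 ± 0.438 in TET2KO. It did not pass as counted (-0.32 ± 0.23, edgeR adjusted p = 0.244) and passed as lower with the trend removed (-1.23 ± 0.29). Pfkfb3 (ENSMUSG00000026773, chromosome 2, 11471433 to 11554077, minus strand), the inducible form on which glycolysis of endothelial cells depends, held 0.672, 1.10 and 0.896 CPM in WT against 5.61, 2.27 and 4.92 in TET2KO. Its levels were low, and the groups did not overlap (2.25 ± 0.41, adjusted p = 0.00652, trend-removed 1.29 ± 0.28, past the test). Pfkfb2, the heart form, held 23.0, 23.3 and 18.48 and 34.45, 34.53 and 34.7 CPM. The TET2KO libraries of Pfkfb2 agreed closely with one another (0.68 ± 0.16, adjusted p = 0.00829, trend-removed 0.41 ± 0.12, past the test), and with merged exons the value of Pfkfb2 was 0.33 and did not pass. Pfkfb2 shares 1262 exonic bases with Gm29427 on the same strand and 154 with Yod1 on the opposite strand, so its counts are uncertain. Pfkfb1 (ENSMUSG00000025271, chromosome X, 150588229 to 150643878, plus strand), the liver and muscle form, held 10.2, 7.36 and 10.2 and 3.59, 5.504 and 3.43 CPM, without overlap. It fell by a factor of 2.22 (-1.15 ± 0.27, adjusted p = 0.00899, trend-removed -0.58 ± 0.18, past the test), although on log2(TPM + 1) it did not pass (-0.40). Shares of the summed TPM of these 3 members leave Pfkfb4 out. Pfkfb1 made up 42.7 ± 6.90% in WT and 16.3 ± 4.35% in TET2KO, Pfkfb2 55.1 ± 6.57% and 74.8 ± 1.08%, and Pfkfb3 2.20 ± 0.642% and 8.88 ± 3.71%.

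The triose phase was split, with 3 of 8 members higher, 3 lower and 2 not past the test (median -0.12, trend-removed 0.13). The shares were 37.5% and 37.5%, against 33.4% and 29.4% of all tested genes. The median transcript of this phase was 1691 nt, and of all genes under 2000 nt 6.77% were higher and 60.1% lower. The muscle enolase and the muscle phosphoglycerate mutase were among those that fell. Eno3 (ENSMUSG00000060600, chromosome 11, 70657202 to 70662513, plus strand), the muscle enolase, held 3453, 2942 and 3664 CPM in WT against 1248, 2097 and 1551 in TET2KO. All WT values were above all TET2KO values, and the mean was 2.05-fold lower (-1.04 ± 0.25, adjusted p = 0.0101, trend-removed -0.60 ± 0.14, past the test). Without TET2KO replicate 3 the fall of -0.96 did not pass. Pgam2 (ENSMUSG00000020475, chromosome 11, 5801640 to 5803733, minus strand), the muscle phosphoglycerate mutase, held 1341, 1318 and 1590 and 519, 870.2 and 637 CPM, again without overlap (-1.07 ± 0.24, adjusted p = 0.00847). Its transcript of 840 nt is the shortest in the set, and its trend-removed value was -0.07 ± 0.10, not past the test. The summed level of cardiomyocyte markers was lower in TET2KO too (71950 to 78100 against 102200 to 124300 CPM), with no overlap, and its part in these falls was not tested. The sum is carried by abundant short transcripts such as Myl2 (32060 ± 4902 to 10310 ± 4171 CPM), while Myh6 (695 ± 81.4 to 7592 ± 5325 CPM), Ttn, Ryr2, Atp2a2 and Actc1 on the same list rose, and with the trend removed 6 of the 12 markers were higher and 3 lower.

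Of their widely expressed partners, Eno1 rose and Pgam1 did not pass the test. Eno1 held 71.7, 81.3 and 81.98 CPM in WT against 145, 103 and 124 in TET2KO, without overlap (0.67 ± 0.18, adjusted p = 0.0144, trend-removed 0.41 ± 0.12, past the test). The call of Eno1 was lost without any 1 of the WT libraries (values from 0.59 to 0.69). With merged exons Eno1 passed in the opposite direction, at -0.61. Pgam1 held 43.7, 48.2 and 62.6 and 32.4, 42.1 and 44.8 CPM, where TET2KO replicate 3 reached into the WT range (-0.37 ± 0.20, adjusted p = 0.137, trend-removed 0.04 ± 0.15, neither past the test). Without TET2KO replicate 2 it passed as lower (-0.39).

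Gapdh (ENSMUSG00000057666, chromosome 6, 125161715 to 125166467, minus strand), the dehydrogenase that opens the energy-yielding phase and a common reference gene, held 1002, 1201 and 1141 CPM in WT against 2661, 1780 and 2406 in TET2KO. The groups did not overlap, and the mean was 2.05-fold higher (1.03 ± 0.23, adjusted p = 0.00735). Its transcript of 1420 nt is short, and the trend-removed value was larger, at 1.499 ± 0.21. With merged exons it was 0.14 and did not pass. Gapdh has 77 near-identical copies in the annotation, 74 of them pseudogenes, so reads may be split or shared between them. Tpi1, triose phosphate isomerase, held 515, 580.2 and 639 and 609.9, 612 and 692 CPM, with overlapping groups (0.14 ± 0.19, adjusted p = 0.521), and passed as higher after trend removal (0.64 ± 0.14).

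Pgk1, which makes the first ATP of the pathway, held 823, 802 and 859 CPM in WT against 399, 594 and 451 in TET2KO, without overlap (-0.78 ± 0.21, adjusted p = 0.0143). Leaving out WT replicate 1, WT replicate 3 or TET2KO replicate 3 ended the call of Pgk1 (values of -0.80, -0.76 and -0.70), as did trend removal (-0.23 ± 0.10). Its promoter above holds ACGTG once on each strand, as did promoters of members that rose. Pkm, the muscle-type pyruvate kinase, held 451, 453 and 459 and 992, 646 and 902 CPM. The WT libraries lay within a narrow band below all TET2KO libraries (0.90 ± 0.22, adjusted p = 0.00967), but trend removal left a value of 0.22 ± 0.10, not past the test, and with merged exons it was -0.35. Pgk1, Eno1, Tpi1, Pgam1, Pkm, Ldha and Ldhb each have from 1 to 4 near-identical copies, which makes their counts uncertain.

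Both lactate dehydrogenase genes fell. Ldhb, the heart-type subunit and the more abundant one, held 2456, 2304 and 2753 CPM in WT against 1184, 1788 and 1377 in TET2KO (-0.79 ± 0.23, adjusted p = 0.0184). Ldha, the muscle-type subunit, held 1091, 1028 and 1213 and 609, 839 and 706 CPM (-0.63 ± 0.21, adjusted p = 0.0287). In neither gene did the groups overlap. Trend-removed values were -0.04 ± 0.10 and -0.16 ± 0.10, and neither passed. Ldhb lost its call when WT replicate 1, WT replicate 3 or TET2KO replicate 3 was left out (-0.81, -0.72 and -0.71). The call of Ldha was lost without any 1 library other than TET2KO replicate 2 (values from -0.69 to -0.49).

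**Figure D2:**
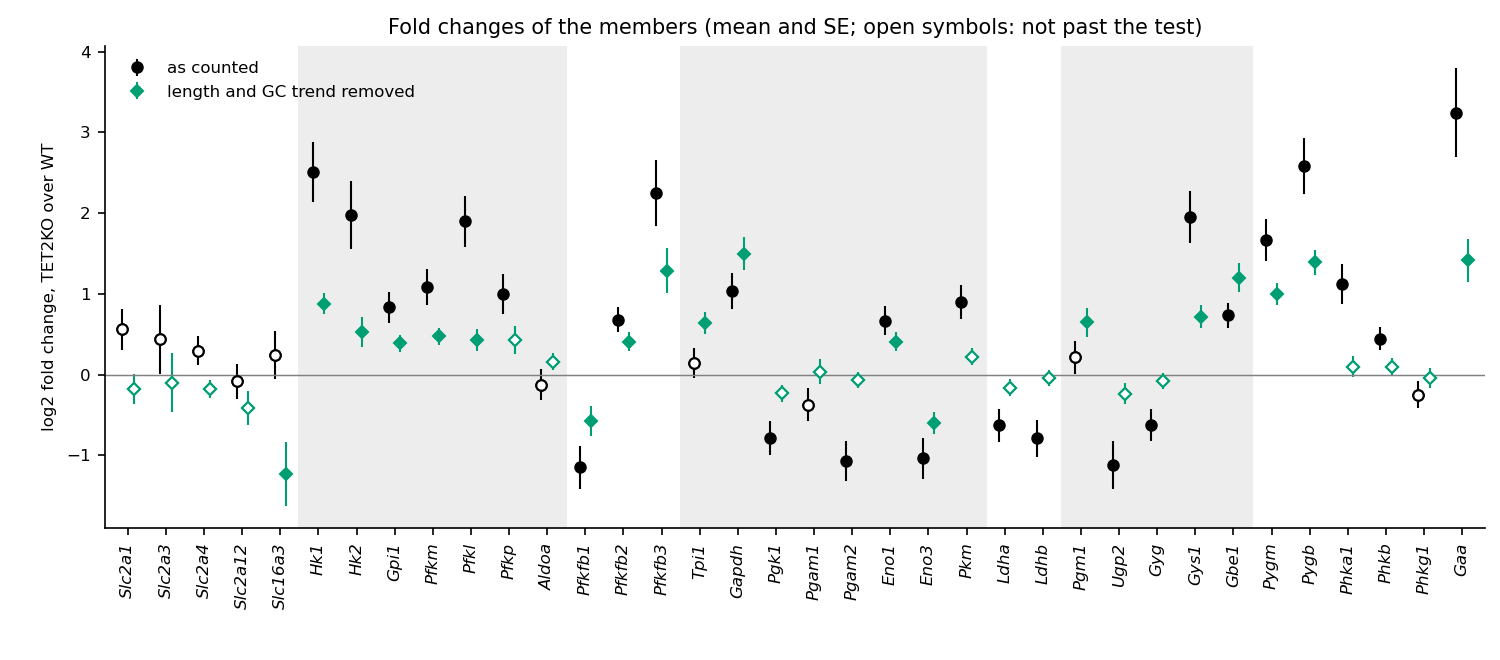
Log2 fold change of TET2KO over WT with its SE (vertical axis) for each tested member (horizontal axis), as counted (black circles) and with the length and GC trend removed (green diamonds); open symbols did not pass the test. As counted 18 members were higher and 8 lower, and with the trend removed 16 were higher and 3 lower.

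In glycogen synthesis 2 of 5 members rose, 2 fell and 1 did not pass (median 0.21), and trend-removed 3 were higher and 0 lower (median 0.65). The shares were 40% and 40%, against 33.4% and 29.4% of all tested genes. Trend-removed they were 60% and 0%, against 21.9% and 24.3%. The synthase and the branching enzyme rose, while the genes that make the sugar donor and the primer fell. Gys1 (ENSMUSG00000003865, chromosome 7, 45434844 to 45456619, plus strand), the muscle glycogen synthase, held 16.7, 18.3 and 17.2 CPM in WT against 88.2, 35.8 and 76.9 in TET2KO. No TET2KO library came near the WT range, and the mean rose 3.85-fold (1.95 ± 0.32, adjusted p = 0.00652, trend-removed 0.72 ± 0.14, past the test). Gys1 shares 310 exonic bases with Ruvbl2 on the opposite strand. Gbe1, the branching enzyme, rose from 29.1 ± 1.78 CPM in WT to 48.3 ± 5.67 in TET2KO (0.73 ± 0.16, adjusted p = 0.00696) and had a larger trend-removed value of 1.20 ± 0.18.

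Ugp2 (ENSMUSG00000001891, chromosome 11, 21321138 to 21371201, minus strand), which makes the UDP-glucose that glycogen synthase adds, held 994, 1002 and 1247 CPM in WT against 340.4, 709 and 443 in TET2KO. The groups did not overlap (-1.12 ± 0.30, adjusted p = 0.0136). Without WT replicate 3 or TET2KO replicate 3 the values of Ugp2 were -1.01 and -1.003 and did not pass, nor did the value after trend removal, -0.24 ± 0.13. Gyg, glycogenin, which primes new glycogen, held 278, 253 and 278 and 149, 217 and 160.4 CPM (-0.62 ± 0.20, adjusted p = 0.0268). That fall did not pass without any 1 library other than TET2KO replicate 2 (values from -0.67 to -0.48) nor after trend removal (-0.08 ± 0.10).

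Phosphoglucomutase links glycogen to glycolysis, and here the symbols need care. The gene listed as Pgm1 in the count table lies on chromosome 5 and is called Pgm2 by RefSeq, whereas the gene RefSeq calls Pgm1, the main phosphoglucomutase of muscle, is listed as Pgm2 and lies on chromosome 4. The listed Pgm1, a member, held 6.10, 5.89 and 4.76 CPM in WT against 6.64, 6.64 and 6.16 in TET2KO. It was low throughout (0.21 ± 0.20, adjusted p = 0.378) and passed as higher after trend removal (0.65 ± 0.18). The listed Pgm2, outside the set, held 35.7, 42.3 and 47.4 and 168, 88.97 and 141 CPM and rose without overlap (1.67 ± 0.26, adjusted p = 0.00652, trend-removed 1.81 ± 0.24, past the test).

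Genes of glycogen breakdown held the 2 largest rises of the set as counted, those of Gaa and Pygb, while with the trend removed the value of Gapdh was larger than both. Of 6 members 5 rose (83.3%) and 1, Phkg1, did not pass (median 1.39). Of all tested genes 33.4% were higher, and of those of 3000 nt or more 53.0%, while the members' median transcript was 3771 nt. Trend-removed 3 were higher (50%) and 0 lower (median 0.55), against 21.9% and 24.3% of all genes. Gaa (ENSMUSG00000025579, chromosome 11, 119267887 to 119285454, plus strand) encodes the lysosomal acid alpha-glucosidase whose loss causes Pompe disease. It held 5.33, 6.87 and 7.22 CPM in WT against 99.2, 19.1 and 65.7 in TET2KO. Every TET2KO library exceeded every WT library, and the spread within TET2KO was wide (9.47-fold, 3.24 ± 0.55, adjusted p = 0.00652, trend-removed 1.42 ± 0.27, past the test). Without TET2KO replicate 1, its highest library, the value was 2.75, and without TET2KO replicate 2, its lowest, 3.69. Both passed the test.

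Glycogen phosphorylase cleaves glucose units from the store in the cytosol. Pygm (ENSMUSG00000032648, chromosome 19, 6384399 to 6398459, plus strand), the muscle form that is lost in McArdle disease, held 209.7, 223 and 248 CPM in WT against 908, 489 and 757 in TET2KO, and its groups were far apart (3.17-fold, 1.66 ± 0.26, adjusted p = 0.00652, trend-removed 1.002 ± 0.14, past the test). Pygb (ENSMUSG00000033059, chromosome 2, 150786735 to 150831758, plus strand), the brain form, held 67.8, 71.3 and 64.7 and 572, 215 and 433 CPM. Even TET2KO replicate 2 was above every WT library for Pygb (5.98-fold, 2.58 ± 0.35, adjusted p = 0.00652, trend-removed 1.39 ± 0.15, past the test). As with the hexose phase, the endothelial marker sum was higher in the same libraries, with Egfl7 and Emcn lower. Of the 12 cardiomyocyte markers 5 were higher there too, among them Myh6, Ttn, Ryr2 and Atp2a2, and 6 were lower. The part of either cell type in these rises was not tested.

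Phosphorylase kinase switches glycogen phosphorylase on. Phka1 (ENSMUSG00000034055, chromosome X, 102513975 to 102644246, minus strand), its muscle alpha subunit, held 15.46, 14.6 and 14.2 CPM in WT against 37.4, 20.9 and 38.2 in TET2KO and rose (1.12 ± 0.25, adjusted p = 0.00744). Its transcript of 6115 nt is the longest in the set, and its trend-removed value, 0.10 ± 0.13, fell short of the test. Phkb, the beta subunit, held 32.3, 35.1 and 32.6 and 46.97, 45.1 and 44.1 CPM, in bands that did not overlap (0.44 ± 0.14, adjusted p = 0.0239, trend-removed 0.10 ± 0.11, not past the test). The rise of Phkb did not pass without any 1 of the WT libraries or without TET2KO replicate 3 (values from 0.41 to 0.51). Phkg1, the catalytic subunit of muscle, had 14.8 ± 0.588 CPM in WT against 12.49 ± 0.845 in TET2KO (-0.25 ± 0.16, adjusted p = 0.21). With merged exons Phkg1 passed as lower, at -0.90. It shares 630 exonic bases with Sumf2 on the opposite strand.

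Ratios of isozymes within a library do not depend on how libraries are scaled, but they still carry the trend with transcript length. Of 11 pairs compared, 7 had ratios that were lower in every TET2KO library than in every WT library, and 4 overlapped. Single genes often did not overlap either, 38% of all tested genes on the higher side and 35.5% on the lower side. No such share was computed for ratios of other genes. With 3 libraries a group the exact permutation test (two-sided) cannot go below p = 0.1, which these 7 pairs reached (0.157 adjusted over the 11 pairs), so none could pass 0.05.

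The enolase pair moved most. The ratio of Eno3 to Eno1 reads was 48.1, 36.2 and 44.7 in WT and 8.60, 20.3 and 12.48 in TET2KO (mean log2 ratio 5.42 ± 0.21 against 3.70 ± 0.62, difference -1.72, trend-removed -1.01). In every library the muscle form still dominated. By TPM the share of Eno1 among the enolases was 0.757 ± 0.114% in WT and 2.57 ± 1.03% in TET2KO. The ratio of Pfkfb2 to Pfkfb3 was 34.2, 21.1 and 20.6 in WT and 6.14, 15.2 and 7.04 in TET2KO (difference of mean log2 ratios -1.501, trend-removed -0.87). The ratio of Pygm to Pygb was 3.09, 3.13 and 3.83 and 1.59, 2.28 and 1.75 (-0.85, trend-removed -0.38), so that the brain form went from 16.8 ± 1.63% to 26.7 ± 3.59% of phosphorylase TPM although both genes rose. The ratio of Hk2 to Hk1 was 2.26, 1.79 and 1.74 and 1.41, 1.14 and 1.31 (-0.58, trend-removed -0.38), with Hk1 at 26.8 ± 2.78% of hexokinase TPM in WT and 35.4 ± 2.51% in TET2KO. In these 4 pairs the groups did not overlap after trend removal either. With merged exon lengths the differences of Eno3 to Eno1 and Hk2 to Hk1 changed sign, to 0.14 and 0.25, whereas those of Pfkfb2 to Pfkfb3 and Pygm to Pygb were -0.97 and -0.31.

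The other lower ratios did not keep their order once the trend was removed. The ratio of Pfkm to Pfkl was 16.2, 13.2 and 13.04 in WT and 7.34, 10.7 and 7.40 in TET2KO, a difference of -0.76 that became 0.03, with overlap. That of Pgam2 to Pgam1 was 30.7, 27.3 and 25.4 and 16.04, 20.7 and 14.2, a difference of -0.72 that became -0.11, with overlap. For Ldhb to Ldha the ratio was 2.25, 2.24 and 2.27 and 1.95, 2.13 and 1.95, a small difference of -0.17 that turned to 0.12, with every TET2KO library then above WT. Slc2a4 to Slc2a1 (-0.24), Pfkm to Pfkp (0.10) and Aldoa to Aldoc (-0.22) overlapped as counted. Glycogen synthase against phosphorylase, Gys1 to Pygm, also overlapped (0.23), with ratios of 0.0794, 0.0819 and 0.0694 in WT and 0.0971, 0.0731 and 0.102 in TET2KO. After trend removal that ratio was lower in every TET2KO library (-0.29).

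**Figure D3:**
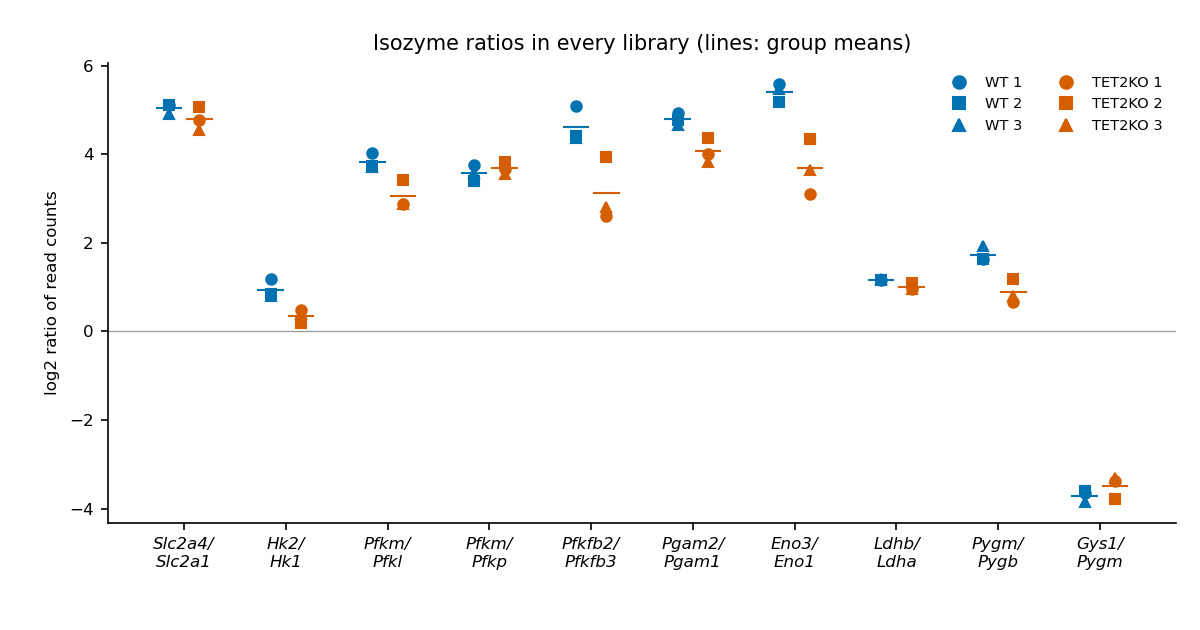
Log2 ratio of the read counts of the genes of a pair (vertical axis) in each library for 10 pairs (horizontal axis; Aldoa to Aldoc is left out for its few reads), with WT in blue, TET2KO in orange, a shape for each replicate and a line at each group mean. The pair Eno3 and Eno1 shows the widest gap, with mean log2 ratios of 5.42 ± 0.21 in WT and 3.70 ± 0.62 in TET2KO.

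Fold changes of the members followed transcript length. Of 11 members with transcripts under 2000 nt, 1 (Gapdh) rose and 7 fell, with a median log2 fold change of -0.63. All genes of that length had a median of -0.91, with 6.77% higher and 60.1% lower. Of 9 members from 2000 to 3000 nt 5 rose and 1 fell (median 0.67). All such genes had a median of -0.10, with 23.95% higher and 30.3% lower. Of 16 members of 3000 nt or more 12 rose and 0 fell (median 1.06, against 0.76 for all such genes, of which 53.0% were higher and 11.3% lower). Across the 36 members, which share their libraries, Spearman's rho of fold change with length was 0.64, with the value of the trend at each gene 0.85, and with length after trend removal 0.22. Gaa, Pygb, Hk1 and Pfkfb3 lay well above the median of genes of like length, whereas Phka1 lay on it.

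**Figure D4:**
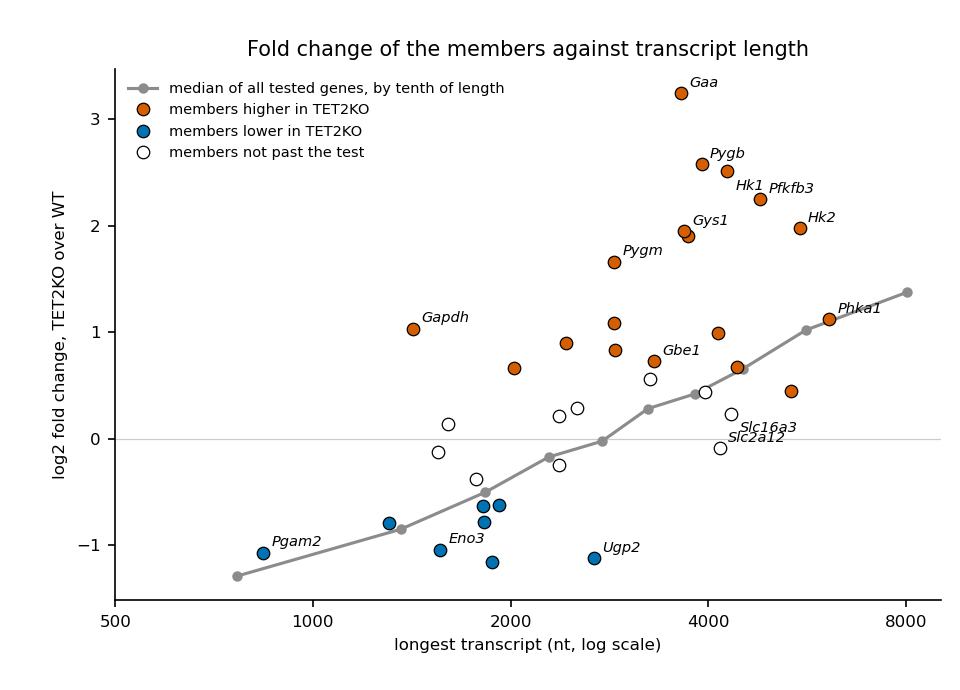
Log2 fold change of TET2KO over WT (vertical axis) against the length of the longest transcript in nt (horizontal axis, log scale) for the 36 tested members, coloured by their call, with the median of all tested genes in 10 groups of equal size by length as a grey line. The line climbs from -1.29 in the group with the shortest transcripts to 1.38 in that with the longest, and 7 of the 8 members that fell have transcripts under 2000 nt.

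Other genes of the same routes were counted from lists written by pathway, with earlier results of these data known. Of 22 tested genes of glucose transport, glycolysis and pyruvate entry outside the set, 3 rose, 3 fell and 16 did not pass (median -0.03, trend-removed 3 higher and 5 lower). As counted 13.6% were higher and 13.6% lower, against 33.4% and 29.4% of all genes. Trend-removed shares were 13.6% and 22.7%, against 21.9% and 24.3%. Without TET2KO replicate 2 the counts were 7 and 6, with 39.8% and 35.3% of all genes. Pdk2, a kinase that shuts the pyruvate dehydrogenase complex, rose from 41.6 ± 5.42 CPM in WT to 239.6 ± 107 in TET2KO (2.53 ± 0.36, adjusted p = 0.00652, trend-removed 2.08 ± 0.26). Mpc1 and Mpc2, the subunits of the mitochondrial pyruvate carrier, both fell. Mpc2 held 1465, 1217 and 1563 CPM in WT against 269.7, 629 and 395 in TET2KO (-1.71 ± 0.33, trend-removed -0.80 ± 0.15, past the test in both), and Mpc1 793, 710.3 and 868 and 221, 451 and 296 CPM (-1.29 ± 0.28, trend-removed -0.16 ± 0.10, not past).

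Further glycogen genes had 13 higher, 2 lower and 5 not past of 20 tested (median 0.66, trend-removed 8 higher and 2 lower). The shares were 65% and 10%, against 33.4% and 29.4% of all genes. Trend-removed they were 40% and 10%, against 21.9% and 24.3%. Without WT replicates 1, 2 and 3 in turn and without TET2KO replicate 3, the higher ones numbered 6, 7, 8 and 8. The share of all genes also fell there, to 23.3%, 25.0%, 22.6% and 24.9%. Only 1 was lower when WT replicate 1, WT replicate 3 or TET2KO replicate 3 was left out (19.6%, 18.6% and 16.9% of all genes). Beside the listed Pgm2, described above, they included Gsk3a, a kinase that inhibits glycogen synthase (11.5 ± 0.713 to 37.8 ± 12.8 CPM, 1.72 ± 0.27, adjusted p = 0.00652, trend-removed 0.97 ± 0.16). Pgm2l1, a sugar bisphosphate synthase, rose from 1.48 ± 0.508 CPM in WT to 5.78 ± 1.67 in TET2KO (1.95 ± 0.35, adjusted p = 0.00652, trend-removed 1.29 ± 0.27).

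Among 40 genes that control glucose uptake and use, 23 rose (57.5%), 3 fell (7.5%) and 14 did not pass (median 0.90). These genes are long, with a median transcript of 4599.5 nt. Of all genes of 3000 nt or more, 53.0% were higher and 11.3% lower. Trend-removed, 15 of the 40 were higher (37.5%) and 11 lower (27.5%), against 21.9% and 24.3% of all genes. Prkaa2, the AMP-activated kinase subunit of muscle, rose from 36.02 ± 3.33 CPM in WT to 136 ± 35.4 in TET2KO (1.92 ± 0.23, adjusted p = 0.00652, trend-removed 1.37 ± 0.14). Rab10, a small GTPase that carries GLUT4 vesicles, rose by 1.70 ± 0.25 (trend-removed 1.87 ± 0.26), and Pik3r1, a regulatory subunit of phosphoinositide kinase in insulin signalling, by 1.77 ± 0.27 (trend-removed 0.81 ± 0.16). These 3 genes passed with and without the trend. Of 26 genes of side pathways from glycolysis, 9 rose, 10 fell and 7 did not pass (trend-removed 7 and 8). The shares were 34.6% and 38.5%, against 33.4% and 29.4% of all genes. Trend-removed they were 26.9% and 30.8%, against 21.9% and 24.3%. Leaving out WT replicate 1, WT replicate 3 and TET2KO replicate 3 in turn left 6, 5 and 5 lower (19.6%, 18.6% and 16.9% of all genes). Gnpnat1 of hexosamine synthesis fell from 44.3 ± 2.17 CPM in WT to 14.8 ± 5.64 in TET2KO (-1.58 ± 0.27, adjusted p = 0.00652, trend-removed -0.71 ± 0.13). H6pd, the pentose phosphate enzyme of the endoplasmic reticulum, rose by 2.25 ± 0.39 (trend-removed 0.39 ± 0.14, not past the test), and Psph of serine synthesis had a log2 fold change of -1.18 ± 0.21 (trend-removed -0.82 ± 0.14, past the test).

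The summed TPM of the 37 members was 12290, 12970 and 12940 in WT and 14640, 14170 and 14080 in TET2KO, each TET2KO library above each WT library. By summed CPM the order was the other way, with 16620, 16160 and 18590 in WT and 15470, 15290 and 15740 in TET2KO. The summed level therefore has no direction that holds across scalings. In the authors' deposited table, 18 members were higher, 8 lower and 10 not past an adjusted p of 0.05, and 36 of 36 had the same call as here.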

How the data were processed

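The main data are the authors' raw counts of reads for each Ensembl gene, not normalised. The authors also deposited TPM values, which sum to an equal total in all libraries. Per the file headers, another deposited table holds p-values, raw and adjusted, and log2 fold changes of the libraries labelled TET2KO over WT. The library columns of that table are a normalised signal: each equals the authors' counts divided by a single factor. Libraries were poly(A)-selected and sequenced from both ends, per the labels' protocols. The submitters' processing notes list Trimmomatic 0.36, STAR 2.5.2b, Subread 1.5.2 with featureCounts, DESeq2, GRCm38 and mm10. The sources used here give no annotation release, strand setting or TPM lengths. Columns were matched to samples by library name, with 0 columns of per-sample values unmatched. Of 49315 gene IDs, 174 have no symbol.

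All genes were fitted together in edgeR 4.0.16 (R 4.3.3; quasi-likelihood F-test, robust, TMM, filterByExpr), with no covariate, and p-values were adjusted by Benjamini-Hochberg at 0.05. The SE was derived from the F statistic, as the size of the log2 fold change divided by its root. Positions, lengths and GC content come from the longest transcripts of GENCODE M21 (GRCm38; 48970 IDs matched). The trend was a smooth surface over length and GC for each library (mgcv 1.9.3, basis size 6 per axis, log2 CPM with prior count 2), used as an offset. Real differences that follow length or GC are removed with it. Near-identical copies have at least 95% identity over at least 300 nt. The fits were tested on simulated counts. Alternatives used DESeq2 1.42.0 and limma 3.58.1.

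The members, pathway lists, pairs and rules were chosen with earlier results of these data known. Values in every library are given for members past the test whose log2 fold change is 1 or more in size, for both genes of a pair, and for members whose call or sign changed with trend removal. From each pathway list, up to 3 genes past the test with the smallest p are named.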

Additional observations from a re-analysis of the deposited data

How the results depend on the processing

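The direction and call of all 36 tested members were the same with DESeq2, with limma-voom and with DESeq2 size factors in edgeR. Members higher numbered 11 with the trend on merged exon lengths (24.0% of all genes). Members lower numbered 3 with the trend removed, 4 with total library size, 2 on log2(TPM + 1) and 0 on log2(TPM + 0.1). The shares of all genes lower were 24.3%, 15.8%, 12.5% and 11.3% there. Leaving out 1 library in turn gave 15 to 20 higher and 2 to 9 lower (22.6% to 39.8% and 16.9% to 35.3% of all genes). With the trend also removed it gave 10 to 17 higher and 1 to 6 lower (13.3% to 27.8% and 13.7% to 30.5%).

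The correlations of the deviations of same-numbered libraries were 0.039, -0.23 and -0.013, within the range of differently numbered ones (-0.27 to 0.26). With 3 libraries a group these values constrain one another, so they cannot exclude a pairing. With replicate number as a block in the fit, 16 members were higher and 5 lower (28.3% and 24.7% of all genes). With the trend removed as well they were 13 and 2 (19.1% and 20.8%).

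Values past the test in at least 1 of the fits changed sign for Slc2a12 (0.44 on log2(TPM + 1) and 0.52 on log2(TPM + 0.1)), Aldoa (0.51 on both, against -0.48, past the test as lower, with merged exon lengths) and Slc16a3 (-1.23 with the trend removed and -1.26 with the block and the trend removed, against 0.43 and 0.83, past the test as higher, on the TPM scales). With merged exon lengths they changed sign for Gpi1 (-0.25), Pfkp (-0.32), Eno1 (-0.61) and Pkm (-0.35). Slc2a1, Slc2a4, Pgam1, Phka1 and Phkg1 also passed in at least 1 fit and took both signs. Over the alternatives their values ran from -0.31 to 1.16, -0.25 to 0.93, -0.49 to 0.27, -0.01 to 1.68 and -0.90 to 0.38, in that order. The cause was not tested.

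Other glycolysis genes, 3 higher and 3 lower as counted, had 8 higher with total library size, 6 without a filter on low counts, 5 with DESeq2, and 9 on log2(TPM + 1) and on log2(TPM + 0.1). They had 5 lower with DESeq2, with either trend removed, and with the replicate block and trend together. Other glycogen genes, 13 higher and 2 lower, had 8 higher with the trend removed, also with the replicate block, and 1 lower with total library size and on both TPM scales. Genes of glucose control, 23 higher and 3 lower, had 15 higher and 11 lower with the trend removed, 14 and 10 with the replicate block added to it, 8 lower with merged exon lengths, and 1 lower on both TPM scales. Side pathway genes, 9 higher and 10 lower, had 15 higher and 2 lower on both TPM scales and 4 lower with total library size. Without 1 library these counts ran from 2 to 7 higher and 3 to 6 lower, 6 to 14 and 1 to 3, 17 to 27 and 2 to 4, and 6 to 11 and 5 to 10. The shares of all genes ran there from 22.6% to 39.8% higher and from 16.9% to 35.3% lower. In the other settings these shares moved as well. They were 45.5% and 15.8% with total library size, 48.6% and 12.5% on log2(TPM + 1), and 50.8% and 11.3% on log2(TPM + 0.1). With DESeq2 they were 33.7% and 31.2%, and without a filter on low counts 16.0% and 12.1% of 31220 genes. With the trend removed they were 21.9% and 24.3%, with merged exon lengths 24.0% and 26.4%, and with block and trend together 19.1% and 20.8%.

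Differences of log2 isozyme ratios with the trend removed were 0.0065 for Slc2a4 to Slc2a1, -0.38 for Hk2 to Hk1, 0.030 for Pfkm to Pfkl, -0.87 for Pfkfb2 to Pfkfb3, -0.11 for Pgam2 to Pgam1, -1.01 for Eno3 to Eno1, 0.12 for Ldhb to Ldha, -0.38 for Pygm to Pygb and -0.29 for Gys1 to Pygm. With merged exon lengths they were 0.25 for Hk2 to Hk1, 0.40 for Pfkm to Pfkl, 1.06 for Pfkm to Pfkp, -0.24 for Pgam2 to Pgam1, 0.14 for Eno3 to Eno1, 0.55 for Ldhb to Ldha, -0.31 for Pygm to Pygb and -0.42 for Gys1 to Pygm. Without 1 library the difference for Aldoa to Aldoc ran from -0.85 to 0.63, and every other pair kept its sign.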
